A study of Homo sapiens with 2 samples.

Results

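The LIM homeobox genes encode transcription factors with a pair of LIM domains, which bind partner proteins, and a homeodomain, which binds DNA. They set the identity of neurons, pituitary cells, limb tissue, gonads and pancreatic islets. The repressive mark H3K27me3, the trimethylation of lysine 27 of histone H3, is laid down by Polycomb repressive complex 2, and developmental transcription factor genes with CpG-rich starts are among its best known targets in cells that do not use them. Here 10 genes of the family, LHX1, LHX2, LHX3, LHX4, LHX5, LHX6, LHX8, LHX9, ISL1 and LMX1B, were followed out of 12, since LMX1A and ISL2 lie outside the rule that placed the members by position on hg19. That rule gave 1 start per gene to the nearest kb. The true start may lie in a neighbouring bin of 1 kb or further off, since no hg19 annotation was used to check it. The 11 bins within 5 kb of each start made 110 bins, of 2600564 autosomal bins listed in the files.

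The cells were HCT116, a human colorectal carcinoma line, with no treatment given in the labels, and the mark was read by chromatin immunoprecipitation and sequencing. There was 1 group of 2 libraries, which the labels call biological replicates without naming separate cultures, so the spread between them may be technical. The depth was 53187504 reads for replicate 1 and 97031399 for replicate 2, or on average 22.0 and 37.5 reads per listed autosomal bin. A level below is the read count of a bin over that average of its own library, with an unlisted bin taken as 0 reads. Counting alone gives an error of 6.43% in replicate 1 and 4.92% in replicate 2 for an average over 11 bins at 1-fold. A bin was called where its count passed a one-sided Poisson test against the library average (Benjamini-Hochberg adjusted p under 0.05 over all listed autosomal bins) and reached 2-fold, in both libraries. No autosomal bin that reached 2-fold in both libraries failed the Poisson test, so the fold minimum set the calls. No input library was used here, so copy number, mappability and base composition are not corrected.

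The DNA just before the starts was CpG-rich at most members. RefSeq promoter sequences (GRCh38.p14) were found for 8 of the 10 genes, with the most upstream start taken where several are listed. In the 250 bases before the start, the count of the dinucleotide CG, which reads the same on both strands, lay between 12 at LHX8 and 38 at LMX1B, against a median of 10 over 27305 promoters, of which 93.6% hold at least 1. The sequences below include that of LHX6, whose stated start bin was called, and that of LHX2, whose upstream mark ends before an almost empty start. The others are those of the unmarked starts with the most and the fewest CG (LMX1B and LHX8). Each is written 5′ to 3′ in the direction of the gene with CG in capitals. On GRCh38.p14 they are chr9:122228434-122228683 (minus strand) for LHX6, chr9:124011518-124011767 (plus) for LHX2, chr9:126613678-126613927 (plus) for LMX1B and chr1:75128184-75128433 (plus) for LHX8.
LHX6: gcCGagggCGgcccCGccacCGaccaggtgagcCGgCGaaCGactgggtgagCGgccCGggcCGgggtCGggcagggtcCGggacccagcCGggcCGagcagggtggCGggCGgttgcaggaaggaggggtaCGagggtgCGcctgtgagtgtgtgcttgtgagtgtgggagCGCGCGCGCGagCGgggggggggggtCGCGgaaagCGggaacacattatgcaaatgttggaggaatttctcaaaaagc
LHX2: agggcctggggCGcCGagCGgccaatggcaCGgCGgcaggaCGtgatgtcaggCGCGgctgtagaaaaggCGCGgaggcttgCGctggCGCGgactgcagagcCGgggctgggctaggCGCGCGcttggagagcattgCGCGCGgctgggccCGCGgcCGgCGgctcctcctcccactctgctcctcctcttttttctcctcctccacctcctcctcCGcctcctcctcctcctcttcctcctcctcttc
LMX1B: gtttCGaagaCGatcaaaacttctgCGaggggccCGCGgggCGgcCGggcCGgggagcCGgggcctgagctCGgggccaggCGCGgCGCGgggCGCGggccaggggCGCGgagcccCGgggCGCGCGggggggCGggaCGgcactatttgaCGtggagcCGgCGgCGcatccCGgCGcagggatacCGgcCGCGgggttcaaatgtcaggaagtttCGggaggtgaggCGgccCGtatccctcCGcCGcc
LHX8: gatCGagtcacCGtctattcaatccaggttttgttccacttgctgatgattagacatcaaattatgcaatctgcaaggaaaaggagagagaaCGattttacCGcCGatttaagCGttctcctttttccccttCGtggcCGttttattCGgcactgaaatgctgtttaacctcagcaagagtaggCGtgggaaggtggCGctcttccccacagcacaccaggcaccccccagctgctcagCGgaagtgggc
LHX6 held 27 CG at 70.4% G and C, LHX2 held 25 at 70.4%, LMX1B held 38 at 76.4% and LHX8 held 12 at 50.4%. Their rank among all promoters, as the share with fewer CG, was 82.9% for LHX6, 78.9% for LHX2, 96.8% for LMX1B and 51.9% for LHX8.

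Across the family the mark was uneven. Of the 110 bins within 5 kb, 18 were called, or 16.4%, against 12.7% of all listed autosomal bins. They belonged to 5 genes, LHX5 with 5 bins, LHX4 and LHX6 with 4 each, LHX9 with 3 and LHX2 with 2, while LHX1, LHX3, LHX8, ISL1 and LMX1B had none. Of autosomal windows of 11 kb, 23.6% of those with any listed bin and 46.2% of those with every bin listed held at least 1 called bin, against these 5 of 10 genes. No gene had as many as 6 of its 11 bins called, which 11.6% of 242925 autosomal windows of 11 kb with any listed bin did, and 24.0% of the 116178 windows with every bin listed in both libraries. At a fold minimum of 3, 8 of the 110 bins were called, against 7.64% of all listed bins, and without a fold minimum 21 of 110, against 16.7%. Among the bins of the stated starts 1 of 10 was called, that of LHX6. With either neighbouring bin allowed, a choice made only once the values were known, LHX5 joined it. Within 50 kb, 155 of 1010 bins were called, or 15.3%. LHX5 held 63 of these, the most of any gene. Without it 92 of 909 bins remained, or 10.1%, against 12.7% of all listed bins. LHX5 was left out by its value, which lowers the share in any case, and the 909 include some unlisted bins.

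**Figure D1:**
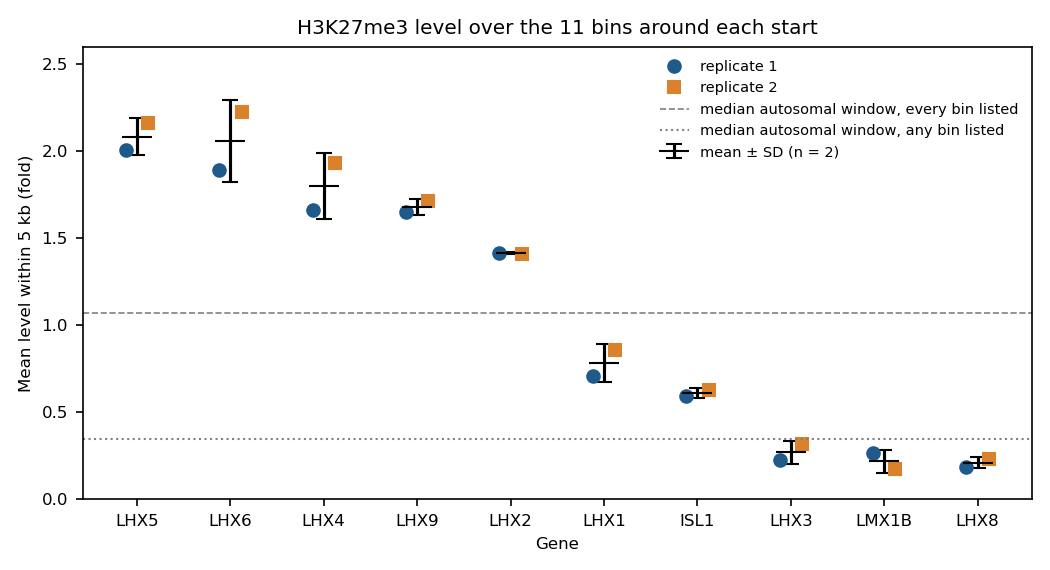
Mean H3K27me3 level (fold over the library average of listed autosomal 1 kb bins) over the 11 bins within 5 kb of each start, by gene, with circles for replicate 1, squares for replicate 2 and bars for mean ± SD (n = 2). LHX5, LHX6, LHX4, LHX9 and LHX2 lie above the median autosomal window in which every bin is listed, and LHX3, LMX1B and LHX8 lie below the median window with any bin listed.

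The average over the 11 bins ordered the genes from LHX5 at 2.08 ± 0.108 and LHX6 at 2.06 ± 0.236, through LHX4 at 1.80 ± 0.191, LHX9 at 1.68 ± 0.0451, LHX2 at 1.41 ± 0.00538, LHX1 at 0.783 ± 0.108 and ISL1 at 0.610 ± 0.0275, to LHX3 at 0.269 ± 0.0649, LMX1B at 0.218 ± 0.0654 and LHX8 at 0.208 ± 0.0312 (SD, n = 2 each). LHX5 did not differ from LHX6, LHX6 from LHX4, LHX4 from LHX9, LHX3 from LMX1B or LMX1B from LHX8 by more than these spreads. An SD of 2 libraries can fall below the counting error by chance, as at LHX2, so it is a loose yardstick. The steps from LHX9 to LHX2, to LHX1, to ISL1 and to LHX3 were larger than the spreads and went the same way in both libraries. Parts of this order held only for this window width. Within 10 kb LHX2 stood at 2.38, above LHX9 at 1.43, and LHX4 at 2.59 stood above LHX5 at 2.07. Within 2 kb LHX2 fell to 0.446, below LHX1 at 0.738 and ISL1 at 0.642. The step from LHX1 to ISL1 kept its direction at both widths. That from ISL1 to LHX3 held within 2 kb, at 0.642 and 0.150. Within 10 kb it was almost gone, at 0.570 and 0.560, and did not go the same way in both libraries. The median gene stood at 1.06 in replicate 1 and 1.13 in replicate 2. Over autosomal windows of the same length the median was 0.345 where any bin was listed and 1.07 where every bin was listed in both libraries. The second set leaves out the emptiest windows, and 6 of the 10 genes would belong to it. A mean level of at least 2-fold was reached by LHX5 and LHX6, 2 of the 10 genes, and by 14.4% of windows with any listed bin and 29.5% of complete windows. A level under 0.5-fold was found at 3 of the 10 genes, in 59.7% of windows with any listed bin and in 24.0% of complete windows.

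**Figure D2:**
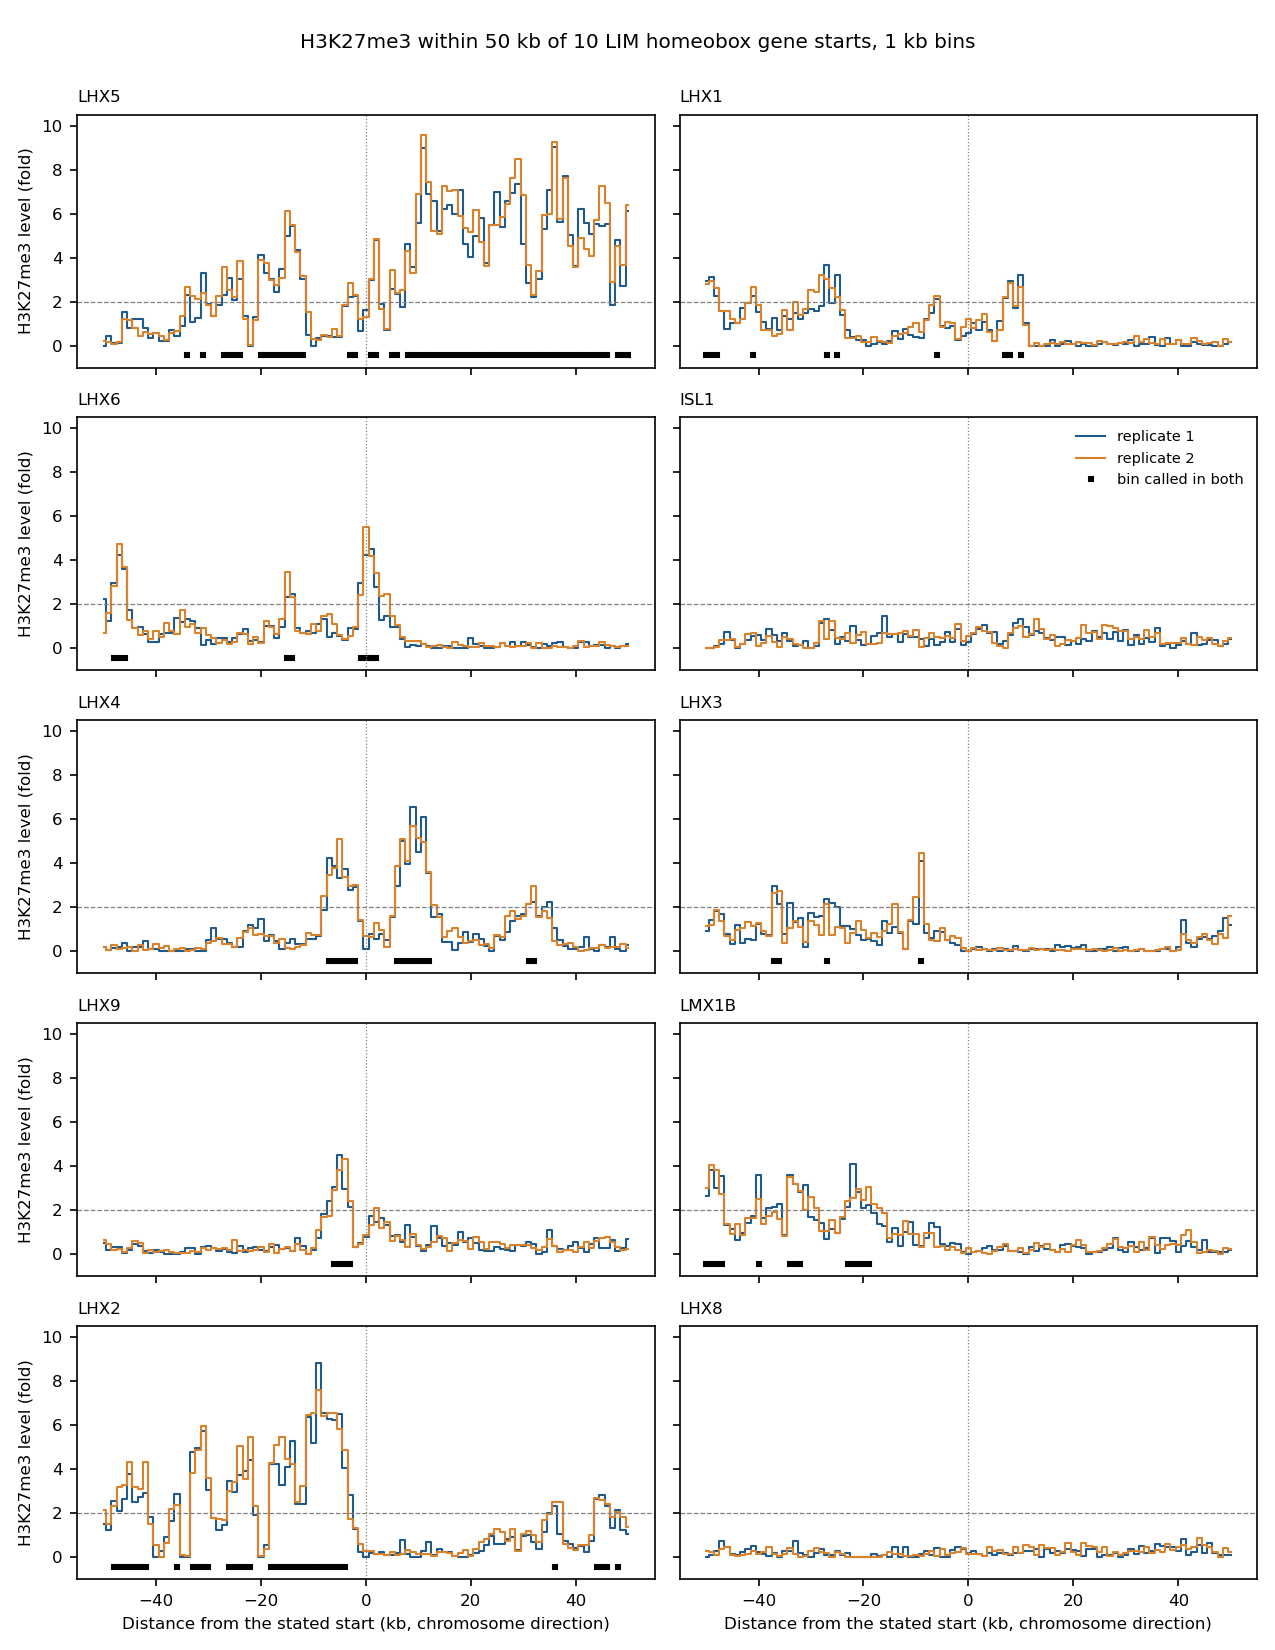
H3K27me3 level per 1 kb bin (fold) against the distance from the stated start in kb, in chromosome direction, with 1 panel per gene, blue for replicate 1, orange for replicate 2 and black squares under the bins called in both. LHX5 lies at the edge of a marked stretch, and LHX6 carries a peak on its stated start. LHX4, LHX9 and LHX2 carry the mark beside the stated start, and LHX8 and ISL1 have no called bin in 101.

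LHX1 and LHX5 are close paralogs, LHX1 being needed for head and kidney formation and LHX5 for forebrain and hippocampal development in mice. Both lack an entry in the promoter table, so their sides are given by chromosome coordinate. LHX5 (chromosome 12, 113905001 to 113916000) had a start bin at 1.64 in replicate 1 and 1.31 in replicate 2, with 36 and 49 reads. The bin 2 kb above it reached 4.82 and 4.85, and the 5 bins called near the start lay on both sides of it. They were the edge of a run of called bins, joined over gaps of up to 2 bins, that covered 79 kb from 113907001 to 113986000 at 4.72 and 4.80, on the side of RBM19, the next protein-coding gene. The bin with the highest average within 50 kb, 11 kb above the start, stood at 9.00 and 9.59. The length of the run rests on how bins are joined: the piece nearest to the start measured 2 kb with no gap allowed and 1 kb at a fold minimum of 3, and the run measured 271 kb with gaps of up to 5 bins. The surroundings were marked as well, and the median listed bin within 1 Mb, without the 50 kb around the start, was 2.82 and 2.85. The LHX5 window lay at 0.713 and 0.758 times these surroundings. Such a ratio, here and below, sets a window average against a median bin. Over all listed autosomal bins the median stood at 0.409 in replicate 1 and 0.373 in replicate 2, so a ratio above 1 does not by itself show local enrichment.

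LHX1 (chromosome 17, 35289001 to 35300000) averaged 0.707 in replicate 1 and 0.860 in replicate 2, with the start bin at 0.591 and 1.20. None of its 11 bins was called. Called bins flanked the window instead: 1 bin at 6 kb below the start stood at 2.14 and 2.24, and a run of 4 kb from 7 to 10 kb above it, 3 of its bins called, averaged 2.52 and 2.38. Beyond it the level was low, with 1.05 and 0.932 at 11 kb and no read in either library at 12 kb. LHX5 was 2.84 and 2.51 times LHX1 within 5 kb, and 4.16 and 4.05 times within 50 kb. Set against the median of its own surroundings of 1 Mb the order turned, with ratios of 0.550 and 0.352.

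LHX3 and LHX4 act together in pituitary and motor neuron development, and loss of either causes pituitary hormone deficiency in people. LHX4 (chromosome 1, 180194001 to 180205000) had a marked block on each side of a low start. Going toward the start from 5 kb upstream, the level in replicate 1 was 3.32, 3.73, 2.77, 2.91 and 1.36, and 0.0909 in the start bin, while replicate 2 gave 5.12, 3.36, 2.96, 3.01 and 1.44, and 0.693 in the start bin. The start bin rests on 2 reads in replicate 1 and 26 in replicate 2. The upstream block covered 6 kb from 180192001 to 180198000, at 3.47 and 3.62, and a second block of 7 kb on the downstream side, from 180205001 to 180212000, was stronger, at 4.66 and 4.64. LHX4 was at 5.23 and 6.60 times the median listed bin of its surroundings.

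LHX3 (chromosome 9, 139092001 to 139103000) held few reads, 54 in replicate 1 and 130 in replicate 2. Its start bin held 0 reads in replicate 1, which allows a level of up to 0.136, and 1 read in replicate 2. The start lay in a stretch of 42 bins under 0.5-fold in both libraries, which reached 40 kb upstream and 1 kb downstream. On the downstream side 4 of the bins within 50 kb were called, the strongest of them at 9 kb, with 4.09 and 4.45. Within 5 kb LHX4 was 7.46 and 6.15 times LHX3, and within 50 kb 1.55 and 1.62 times.

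LHX2 and LHX9 are paralogs, LHX2 being required for eye, forebrain and hair follicle stem cells and LHX9 for the gonad in mice. At LHX2 (chromosome 9, 126769001 to 126780000) the mark stopped short of the start. Replicate 1 fell over the bins from 5 kb to 1 kb upstream through 6.50, 4.05, 2.82, 1.27 and 0.227, and replicate 2 through 5.83, 4.85, 1.73, 1.33 and 0.613. The start bin was empty in replicate 1, with 10 reads in replicate 2, and the 5 downstream bins averaged 0.145 and 0.176. The upstream mark formed a run of 15 kb, every bin of which was called, from 126756001 to 126771000 at 5.06 and 5.34, and 3 more runs of 5 to 7 kb lay within 50 kb on the same side, toward DENND1A. On the downstream side, toward NEK6, called bins began 36 kb from the start. LHX2 had 37 of 101 bins called, second to LHX5. The run grew to 56 kb with gaps of up to 5 bins and to 23 kb in replicate 2 alone.

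LHX9 (chromosome 1, 197877001 to 197888000) had the same side marked over a shorter stretch. Its 4 called bins, from 197876001 to 197880000 upstream of the start, averaged 3.16 and 3.37. They were followed by 0.318 and 0.320 at 2 kb upstream and by 0.773 and 0.853 in the start bin, and downstream the level stayed at 1.39 and 1.33 on average with no bin called. No other bin within 50 kb was called. In replicate 2 alone a bin 2 kb downstream also passed, at 2.08, and was then the called bin nearest to the start, where replicate 1 had 1.45. LHX9 was 1.16 and 1.21 times LHX2 within 5 kb but 0.293 and 0.271 times within 50 kb.

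LHX6 and LHX8 direct the interneurons and cholinergic neurons of the ventral forebrain and the development of teeth in mice. LHX6 (chromosome 9, 124987001 to 124998000) had its highest bin, by the average of both libraries, on the stated start, with 4.23 in replicate 1 from 93 reads and 5.51 in replicate 2 from 207 reads. The next bin upstream stood at 4.50 and 4.21, and the one downstream at 2.95 and 2.42. The bin 2 kb downstream stood at 0.864 and 0.959 and was not called. The stated start was not checked on hg19, so whether the true start is marked depends on that coordinate. The block covered 4 kb, from 124991001 to 124995000, at 3.61 and 3.90. Upstream of it the level was higher in replicate 2 (2.37, 2.48 and 1.49 at 3, 4 and 5 kb) than in replicate 1 (1.27, 1.45 and 0.954). The 11 bins were at 3.23 and 3.51 times the rest of the bins within 50 kb, which reach into a run of 16 kb at 3.30 and 3.29 on the downstream side, and at 2.19 and 2.78 times the median listed bin within 1 Mb.

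LHX8 (chromosome 1, 75589001 to 75600000) stood with LMX1B at the low end of the order. Its 11 bins held 45 reads in replicate 1 and 95 in replicate 2, or 0.186 and 0.230, and all 11 lay under 0.5-fold in both libraries. Of its 101 bins, the one highest on average reached 0.545 and 0.853, and 88 of 101 were under 0.5-fold. It lay at 0.682 and 0.864 times its surroundings. LHX6 was 10.2 and 9.67 times LHX8 within 5 kb and 3.34 and 3.30 times within 50 kb.

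ISL1 marks motor neurons, pancreatic islet cells and cardiac progenitors. At ISL1 (chromosome 5, 50674001 to 50685000) the mark was low and flat, at 0.591 in replicate 1 and 0.630 in replicate 2, with a start bin of 0.273 and 0.559 and 1.14 and 1.25 in the bin highest on average within 50 kb. No bin of 101 was called. The window average was at 1.86 and 1.97 times the median listed bin of its surroundings, again an average set against a median. Its paralog ISL2 was lower within 5 kb, at 0.169 and 0.138, so that ISL1 was 3.49 and 4.56 times ISL2, but within 50 kb ISL1 was 0.865 and 0.907 times ISL2.

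LMX1B patterns the dorsal limb, the kidney and midbrain neurons, and its loss of one copy causes nail-patella syndrome. At LMX1B (chromosome 9, 129372001 to 129383000) all 11 bins were under 0.5-fold in both libraries, within a low stretch of 18 bins from 5 kb upstream to 12 kb downstream. No read fell in the start bin in replicate 1, against 10 in replicate 2. The mark lay upstream, toward MVB12B, among others in a run of 5 kb from 129354001 to 129359000 at 2.67 and 2.70 and a run of 10 kb from 129321001 to 129331000 at 4.16 and 4.75. In all 13 of 101 bins were called, and the window stood at 0.254 and 0.159 times the rest of its 50 kb.

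**Figure D3:**
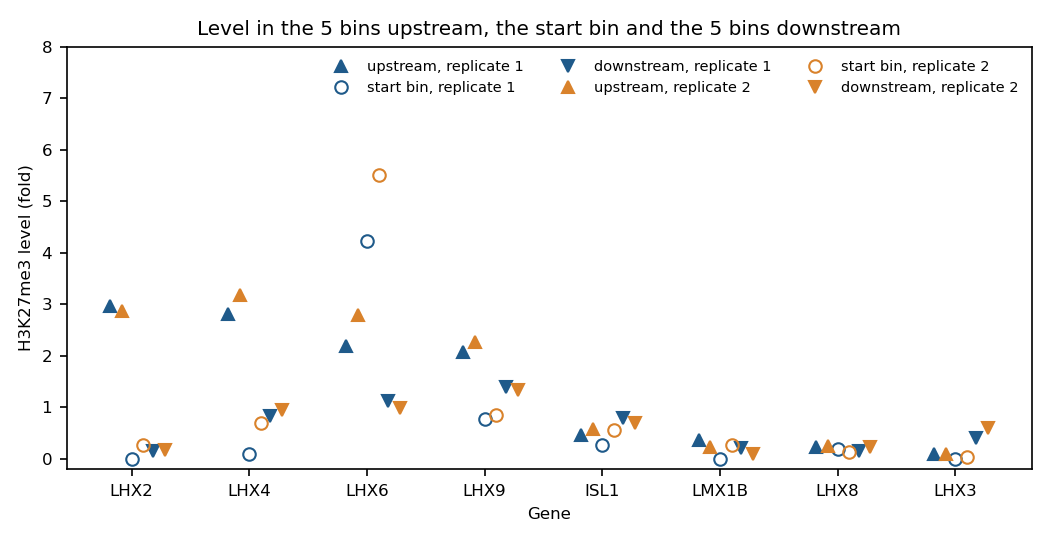
H3K27me3 level (fold) averaged over the 5 bins upstream (upward triangles) and the 5 bins downstream (downward triangles), with the start bin as open circles, for the 8 genes with a strand in the promoter table, blue for replicate 1 and orange for replicate 2. At LHX2, LHX4 and LHX9 the start bin lies under the upstream average in both libraries, and at LHX6 it lies above it.

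By side of the start, 6 of 8 genes were higher over the 5 upstream bins than over the 5 downstream bins in both libraries. These include LHX8 and LMX1B, whose 11 bins all lay under 0.5-fold, so their sides differ at low levels only. LHX8 had 0.227 and 0.256 upstream against 0.145 and 0.224 downstream. The same count was not made over other genes, so 6 of 8 has no share to stand beside. LHX2 showed the widest gap, with 2.97 upstream and 0.145 downstream in replicate 1 and 2.87 and 0.176 in replicate 2. LHX3 and ISL1 were higher downstream. Averaged over these 8 genes, the level was 2.01 and 2.19 at 5 kb upstream, 0.693 and 1.04 at the start and 0.608 and 0.596 at 5 kb downstream, and 3, 1 and 0 of the 8 genes had those bins called. The medians over the 8 genes were lower, at 0.704 and 0.972 at 5 kb upstream and 0.136 and 0.413 at the start, since LHX2, LHX4 and LHX9 carry the upstream average and LHX6 that of the start. The stated starts are rounded and genes have further starts, so this profile is blurred by 1 kb or more.

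The start bins differed more between the libraries than the whole windows that hold them. Over the 10 genes they averaged 0.777 in replicate 1 and 1.08 in replicate 2, from 171 and 406 reads, so replicate 2 stood at 1.39 times replicate 1. The same ratio was 1.10 for the 11 bins and 1.06 for the 101 bins. The start bin was higher in replicate 2 at 8 of 10 genes, and so was the average over the 11 bins. The gap was widest at LHX6 (4.23 and 5.51), LHX1 (0.591 and 1.20) and LHX4 (0.0909 and 0.693). Single bins carry more counting error than a window, and whether the excess goes beyond that was not tested. The 8 promoter sequences found held between 50.4% (LHX8) and 78.4% (LHX3, not printed above) G and C. The part of base composition in the low start bins was not tested.

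**Figure D4:**
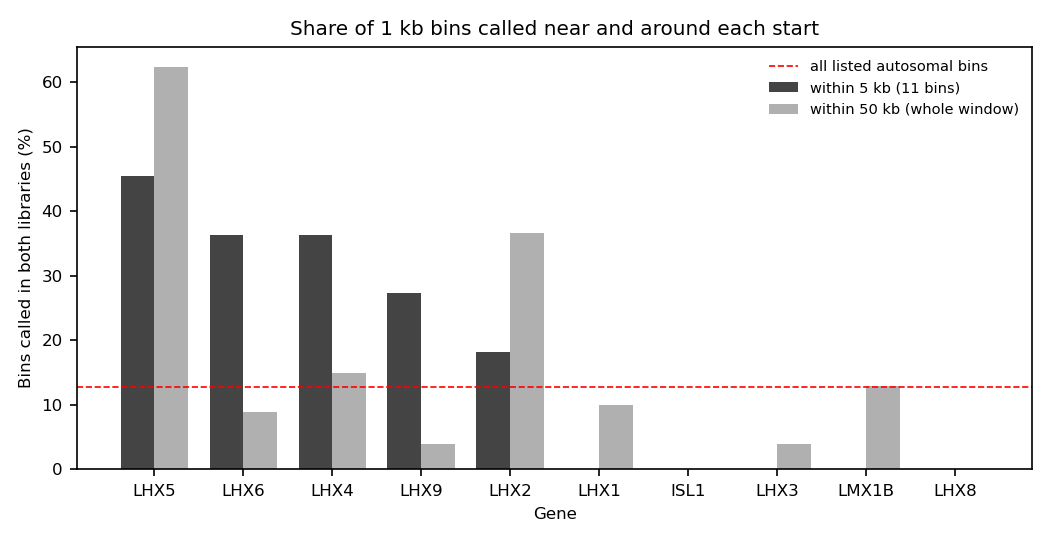
Share of 1 kb bins called in both libraries, in percent, within 5 kb (dark bars, 11 bins) and within 50 kb (light bars, 101 bins) of each start, with genes in the order of their level and the share over all listed autosomal bins as a dashed line. LHX5, LHX2, LHX1, LHX3 and LMX1B have a larger share called within 50 kb than within 5 kb, LHX6, LHX4 and LHX9 a smaller one, and ISL1 and LHX8 have no called bin.

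The other genes of the family and its partners were described by the same window, with starts on hg19 taken from general knowledge to the kb. LMX1A, the paralog of LMX1B that specifies dopaminergic neurons, had the highest level of the 16 genes measured, members included. It averaged 3.00 in replicate 1 and 3.26 in replicate 2 within 5 kb, with 9 of 11 and 99 of 101 bins called, and lay in a run of 491 kb at 5.34 and 5.68. It was 11.3 and 19.0 times LMX1B within 5 kb, and 3.83 and 7.20 times when each was set against its surroundings. Its start bin nonetheless was low, at 1.09 and 0.373. Of the cofactors, 0 of 4 had a called bin within 5 kb, where 23.6% of windows with any listed bin had at least 1. LDB1, the adaptor that LIM homeodomain proteins bind, stood at 0.450 and 0.448. LDB2, its relative, had the highest level of the 4, at 1.23 and 1.40. LMO4, a LIM-only protein that competes for LDB1, stood at 0.302 and 0.436, and SSBP3, which stabilizes LDB1, at 0.215 and 0.208.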

How the data were processed

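H3K27me3 ChIP-seq of HCT116 cells was analysed in 1 group of 2 libraries. The deposited files give raw read counts per bin of 1000 bases, the fourth column being named a read count in the authors' deposited readme. Empty bins do not appear in the files. The build is hg19 (GRCh37) and the aligner named is BWA 0.7.12, per the submitters' processing notes. How reads were counted and whether duplicates or poorly mapped reads were dropped is not stated there. Even counts made up 57.0% of the listed bins within 50 kb of the members, so the reads may not be independent and counting errors are too small.

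Levels, calls, runs and windows were computed as defined in the report with scipy 1.17.1, pandas 2.3.3 and numpy 2.4.6 under Python 3.11.15 (figures, matplotlib 3.10.9), and the call rule was tested on simulated counts. There was no test between groups. An empty bin is given an upper limit of 3 reads, which covers counting error only. All 10 members are named. The members, their starts and the lists were chosen with earlier results of these data known, and the paralog pairs were set from general knowledge. Strands and sequences are from RefSeq (GRCh38.p14), found for 8 of 10 members, the strand being taken to be the same on hg19, and neighbouring genes were named from the same assembly. No coordinate was converted between builds. Alternatives were other fold minimums, scalings, window widths, bins, gaps, halved counts and each replicate left out.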

Additional observations from a re-analysis of the deposited data

How the results depend on the processing

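At a fold minimum of 3, the 18 called bins within 5 kb became 8, the 155 within 50 kb became 89, and the summed run length of 108 kb became 23 kb. Without a fold minimum the runs summed to 270 kb, and 1 gene had most of its 11 bins called, against 0. Scaled to the autosomal median bin, 42 and 314 bins were called within 5 kb and 50 kb, 2 start bins, 4 genes with most bins and 347 kb of runs. With that scaling 26.7% of all listed autosomal bins were called, against 12.7% in the main setting. Scaled to the median within 1 Mb, the counts were 31 and 243 bins, 2 start bins and 2 genes with most bins. The share over all listed autosomal bins was then 17.5%. Runs summed to 31 kb with no gap and 341 kb with gaps of up to 5 bins. The start bin or a neighbour was called at 2 genes. The median gene level of 1.10 became 2.82 and 1.82 with those scalings, 0.690 within 2 kb and 1.28 within 10 kb. With a replicate left out, called bins were 19 to 21 and 165 to 179, start bins 1 to 1, genes with most bins 0 to 1, runs 110 to 117 kb and the median level 1.06 to 1.13. Halved counts, 5 kb bins and listed bins alone kept the counts and the level within their limits. Of the single genes' alternatives, 37 of the levels moved by more than 1 SD and 33 did not. The 33 include every setting with a replicate left out. With 2 libraries such a shift is always under 1 SD, so these settings could not move and the 33 overstate how stable the levels are. The cause was not tested in any of these settings. No paired analysis was possible because the series holds a single group. At this depth a bin with no read allows a level of up to 0.136 in replicate 1 and 0.0799 in replicate 2.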
